A study of Mus musculus with 116 samples.

Results

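The 9 genes of the mouse HoxD cluster were followed through 92 RNA-seq libraries of sorted cortical cells that carry or lack Eed, a core subunit of Polycomb repressive complex 2 (PRC2). The members are Hoxd1, Hoxd3, Hoxd4, Hoxd8, Hoxd9, Hoxd10, Hoxd11, Hoxd12 and Hoxd13, 9 of the 53379 gene identifiers counted. They were taken by their position in the cluster and not by a limit on their values. The cluster was chosen with earlier results of these data known. Of the 116 libraries, 92 held at least 1000000 uniquely aligned reads that made up at least 60% of all reads, and 24 were not used. Every library came from neocortex of mice labelled as strain CD1 (described in the study as a mixed C57BL/6 and CD1 background) at E12.5, E13.5, E16.5 or P0 (labelled E12, E13, E16 and P0), as a pool of 2 to 3 cortices sorted by fluorescence and sequenced by Smart-seq2. The labels do not say whether pools of one group came from separate litters, so p-values measure the spread between these pools.

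All groups carried the MADM-7 cassettes, in which a rare exchange between the copies of chromosome 7 marks daughter cells green, red or yellow, together with Emx1-Cre, which is active in the progenitor lineage of the dorsal cortex. In control-MADM (MADM7-GT/TG;Emx1-cre) every cell is Eed+/+. In Eed-MADM (MADM7-GT/TG,Eed;Emx1-cre) green cells are Eed-/-, red cells Eed+/+ and yellow cells Eed+/-, and these sparse cells lie in an Eed+/- cortex. In cKO-Eed-MADM (MADM7-GT,Eed/TG,Eed;Emx1-cre) all cells of the Emx1-Cre lineage are Eed-/-, whatever their colour. Green and red cells also differ in the parent from which both copies of chromosome 7 come, whereas the HoxD cluster lies on chromosome 2. For E12.5 there were 5 green libraries of control-MADM, 4 of cKO-Eed-MADM and 8 of Eed-MADM. In the same order they numbered 2, 4 and 2 for E13.5, then 3, 4 and 5 for E16.5, then 5, 4 and 9 for P0. The other 37 libraries were 17 red and 20 yellow.

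Hox genes encode homeodomain transcription factors that give cells their position along the body axis. In mammals they lie in 4 clusters, and within a cluster the genes are switched on in the order in which they lie. Thus Hoxd1 and Hoxd3 are active towards the hindbrain and Hoxd10 to Hoxd13 in the posterior trunk, the limbs and the genital bud. The forebrain normally keeps all 4 clusters silent, and they are the textbook targets of PRC2, which places methyl groups on lysine 27 of histone H3 and so marks genes for repression. Eed reads that mark and is needed for the activity of the complex. The comparisons below ask whether the cluster was read out in cells without Eed, whether this differed between sparse and tissue-wide loss, and whether it followed the position of the genes.

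Levels are given as CPM, read counts per 1000000 reads of the TMM-normalised library size. Reads assigned to genes numbered 865832 to 2359317 per library at E12.5 and 2784557 to 7249098 at the later ages. Cells of E12.5 were sorted into a detergent buffer and those of later ages into an extraction buffer followed by TRIzol, so that this age cannot be told apart from its collection route. Whole-gene Eed reads, which also cover exons outside the deleted part, fell in green cKO-Eed-MADM cells against control-MADM by 1.10 on the log2 scale at E16.5 (SE 0.31, adjusted p = 0.031) and by 1.32 at P0 (SE 0.25, adjusted p = 0.000378). At E12.5 and E13.5 the log2 differences were -1.34 (adjusted p = 0.282) and -1.64 (adjusted p = 0.0933). In the library labelled cKO-Eed-MADM red replicate 1 of P0, Eed stood at 33.3 CPM, inside the range of the P0 control libraries of all colours (25.4 to 36.5), whereas red replicate 2 stood at 5.51. That library also held reads of 13133 genes, against 18385 to 22465 in the other P0 cKO-Eed-MADM libraries used. Counts of members called that rest on it are given with and without it, except where said.

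The cluster spans 96833 bases of chromosome 2 (GRCm38, GENCODE annotation), and all members lie on the plus strand. Hoxd13 starts it at chr2:74668310-74671599, followed by Hoxd12 at chr2:74675013-74677705, Hoxd11 at chr2:74679557-74687016, Hoxd10 at chr2:74691924-74695105, Hoxd9 at chr2:74697727-74700208 and Hoxd8 at chr2:74704615-74707933. Hoxd3 (chr2:74711927-74748442) and Hoxd4 (chr2:74711929-74729160) overlap each other, and Hoxd1 at chr2:74762980-74765142 closes the cluster. Only 37.15% of the exon length of Hoxd3 and 47.69% of that of Hoxd4 lies in no other gene. The rest is shared between these 2 genes, with another gene model on the same strand and with the antisense RNAs Hoxd3os1 and, for Hoxd3, Haglr. Since the libraries are unstranded, reads from a gene and its antisense partner cannot be told apart, and reads that fell in several genes were left out of the counts. The values of Hoxd3, Hoxd4 and Hoxd3os1 therefore rest on their unshared parts and are uncertain. Of the exon length of Hoxd10 and Hoxd11, 94.27% and 89.2% is unshared. Exons of Hoxd9, Hoxd8, Hoxd12, Hoxd13 and Hoxd1 are shared with no annotated gene.

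The DNA just before the start of 3 members is shown because their read-out differed most: Hoxd9 and Hoxd10 gave the most reads of the cluster, and Hoxd12, which lies between active neighbours, gave none from E13.5 on. The sequences are RefSeq's for GRCm38.p6, plus strand, 5′ to 3′, with each CG dinucleotide in capitals, since CG-rich stretches are where PRC2 is typically found. That of Hoxd9 was cut to the part outside annotated exons.
Hoxd9, chr2:74697587-74697726: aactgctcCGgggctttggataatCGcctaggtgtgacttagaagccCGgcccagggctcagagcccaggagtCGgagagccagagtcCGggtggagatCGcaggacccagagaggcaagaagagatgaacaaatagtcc
Hoxd10, chr2:74691641-74691890: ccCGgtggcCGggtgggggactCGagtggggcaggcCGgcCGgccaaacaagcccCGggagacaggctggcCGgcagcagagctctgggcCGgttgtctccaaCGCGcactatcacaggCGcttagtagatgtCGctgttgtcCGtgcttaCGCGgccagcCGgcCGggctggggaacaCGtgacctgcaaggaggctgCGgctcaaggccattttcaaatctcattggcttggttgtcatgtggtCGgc
Hoxd12, chr2:74674763-74675012: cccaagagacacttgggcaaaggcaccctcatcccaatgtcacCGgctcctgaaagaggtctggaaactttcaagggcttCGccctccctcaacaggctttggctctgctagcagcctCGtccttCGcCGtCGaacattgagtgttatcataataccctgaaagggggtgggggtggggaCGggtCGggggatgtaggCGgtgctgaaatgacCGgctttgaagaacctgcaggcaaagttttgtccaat

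Over the 250 bases before each start in the RefSeq table, all 9 members had at least 1 window and Hoxd11 had 2. These starts can differ from the GENCODE starts given above. The Hoxd4 window (chr2:74721728-74721977) lies inside that gene as given there. The Hoxd9 window (chr2:74697513-74697762) is longer than the sequence shown and runs into its first exon. The motif counted was CG, which reads the same on both strands. Hoxd10 held 20 CG dinucleotides and Hoxd12 held 10, numbers reached by 17.9% and 37.8% of all 32851 windows. Hoxd9 held 13 (31.5% of windows hold as many), Hoxd13 held 31 (5.19%) and Hoxd1 held 24 (11.98%). The other windows ranged from 2 in one of the Hoxd11 windows to 20 in the other, with 12 for Hoxd3, 6 for Hoxd8 and 3 for Hoxd4, around a median of 6 over all windows. The 2 members with the most CG, Hoxd13 and Hoxd1, were not those with the most reads. These letters are a description of the windows and no binding or methylation was measured.

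In control-MADM the cluster was silent at the depth of these libraries. From E13.5 to P0, 19 control libraries of all colours, with 96543299 gene reads in all, held 7 HoxD reads, in 3 libraries. Of these, 4 reads (3 of Hoxd3 and 1 of Hoxd4) came from the red library of E13.5, which also held 1 Haglr read. The other 3 reads, 1 each of Hoxd4, Hoxd9 and Hoxd10, came from green P0 libraries. In the same span the 21 cKO-Eed-MADM libraries, with 101055719 gene reads, held 8024 HoxD reads, and each held at least 53. Intervals and lower limits given below cover counting error only, since Smart-seq2 reads carry no molecular identifiers.

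**Figure D1:**
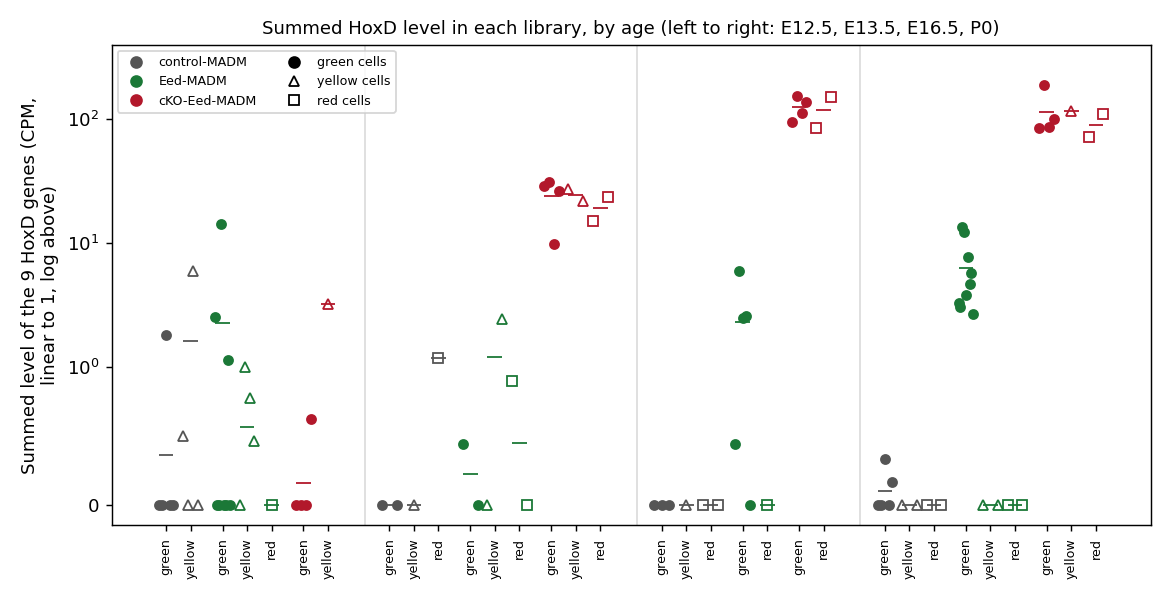
Summed CPM of the 9 HoxD members in each of the 92 libraries, in 1 section per age, on an axis that is linear up to 1 CPM and logarithmic above. Colours stand for the paradigm, marker shapes for the sorted cell colour and lines for group means. From E13.5 on, every cKO-Eed-MADM library lies between 9.87 and 188 CPM, while control-MADM libraries lie between 0 and 1.18 CPM.

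At E12.5 the members gave few reads in any paradigm, and no difference between paradigms passed the test. In the 4 green cKO-Eed-MADM libraries there was 1 HoxD read, of Hoxd4 in replicate 5, and the 5 green control libraries held 3 (2 of Hoxd3 and 1 of Hoxd4, all in replicate 3). Of the 8 green Eed-MADM libraries, 5 held no HoxD read. Replicate 5 of that group stood apart with 34 reads, namely 5 of Hoxd9, 4 of Hoxd10, 5 of Hoxd11, 11 of Hoxd12 and 9 of Hoxd13, a run of neighbours at the 5′ end of the cluster. The single yellow cKO-Eed-MADM library held 6 reads of Hoxd1 and of no other member. Hoxd12 was seen only at this age and in 3 libraries used: besides the 11 reads above, it had 4 reads in control-MADM yellow replicate 3 and 1 in Eed-MADM yellow replicate 4. The summed level of red blood cell genes ranged up to 92240 CPM in the green libraries of this age, and it was 109260 CPM in that yellow library.

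Differences between paradigms were tested at each age with edgeR's quasi-likelihood test on the read counts, adjusted by Benjamini-Hochberg over all genes tested, and a gene is called where the adjusted p lies under 0.05. Genes entered the test where their counts averaged more than 1 read per green library (more than 10 at the later ages). Since the members are near 0 in control cells, a member that passed this limit passed it through cKO-Eed-MADM and had to differ. The fit was therefore also run without the limit, on every gene with a read, and the share of all genes called higher is given beside each count. At E12.5 no member passed the limit, and without it 0 of 8 members were called in any of the 3 comparisons. The share of all genes called higher there was 0.319% for cKO-Eed-MADM against control-MADM, 0.00586% for Eed-MADM against control-MADM and 0.492% for cKO-Eed-MADM against Eed-MADM. With an unadjusted p under 0.05 there were 0, 3 and 2 members in the same order, and in DESeq2, run with the limit, no member entered.

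At E13.5 Hoxd9 was the first member with appreciable levels in cells of the tissue-wide mutant. Hoxd9, a posterior-group gene that helps to pattern limbs and lumbar vertebrae, stood at 21.5, 22.3, 7.63 and 17.5 CPM in the 4 green cKO-Eed-MADM libraries (replicates 1, 2, 3 and 5), from 97, 107, 41 and 76 reads. Both green control libraries and both green Eed-MADM libraries held 0 Hoxd9 reads, so the groups did not overlap. Against 3 reads over the 2 control libraries, Hoxd9 was at least 64.6-fold higher in cKO-Eed-MADM. The fitted log2 difference was 9.42 (SE 1.41, edgeR adjusted p = 0.0476).

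Hoxd8, the next gene towards the 3′ end, gave 17, 29, 5 and 22 reads in the same 4 libraries and 0 in the other green libraries of E13.5, at least 14.8-fold above control-MADM. Hoxd4, a gene of the hindbrain and neck region, gave 10, 1, 7 and 3 reads, again with none in either other group, at least 4.14-fold above control-MADM. The more posterior members were thinner in these 4 libraries. Hoxd10 gave 2, 6, 0 and 9 reads, Hoxd13 gave 7 reads in replicate 2 only, and Hoxd11 gave 4 in replicate 5 only. Hoxd3 gave 4 reads in replicate 1, and Hoxd1 and Hoxd12 gave none. Hence 3 members, Hoxd4, Hoxd8 and Hoxd9, did not overlap between cKO-Eed-MADM and control-MADM green libraries at this age. Over all genes with a read in either group, 6.49% had every cKO-Eed-MADM library above both control libraries.

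By the test, 1 member passed the limit at E13.5 and was called, Hoxd9, where 0.0297% of all genes were called higher. Without the limit 7 members were tested and Hoxd9 alone was called, against 0.484% of all genes. Its call was lost on leaving out any 1 of the 4 cKO-Eed-MADM libraries or control-MADM replicate 1, and held without control-MADM replicate 3. Against Eed-MADM the Hoxd9 difference was also 9.42 (SE 1.43, adjusted p = 0.0615), where 0.0149% of all genes were called higher. That comparison shares the cKO-Eed-MADM libraries with the first. Without the limit Hoxd9 was called there (1 of 7 members, against 0.0899% of all genes). Between Eed-MADM and control-MADM 0 of 7 members were called (0.0726% of all genes), and no member had an unadjusted p under 0.05 or was called by DESeq2 in the fit with the limit.

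**Figure D2:**
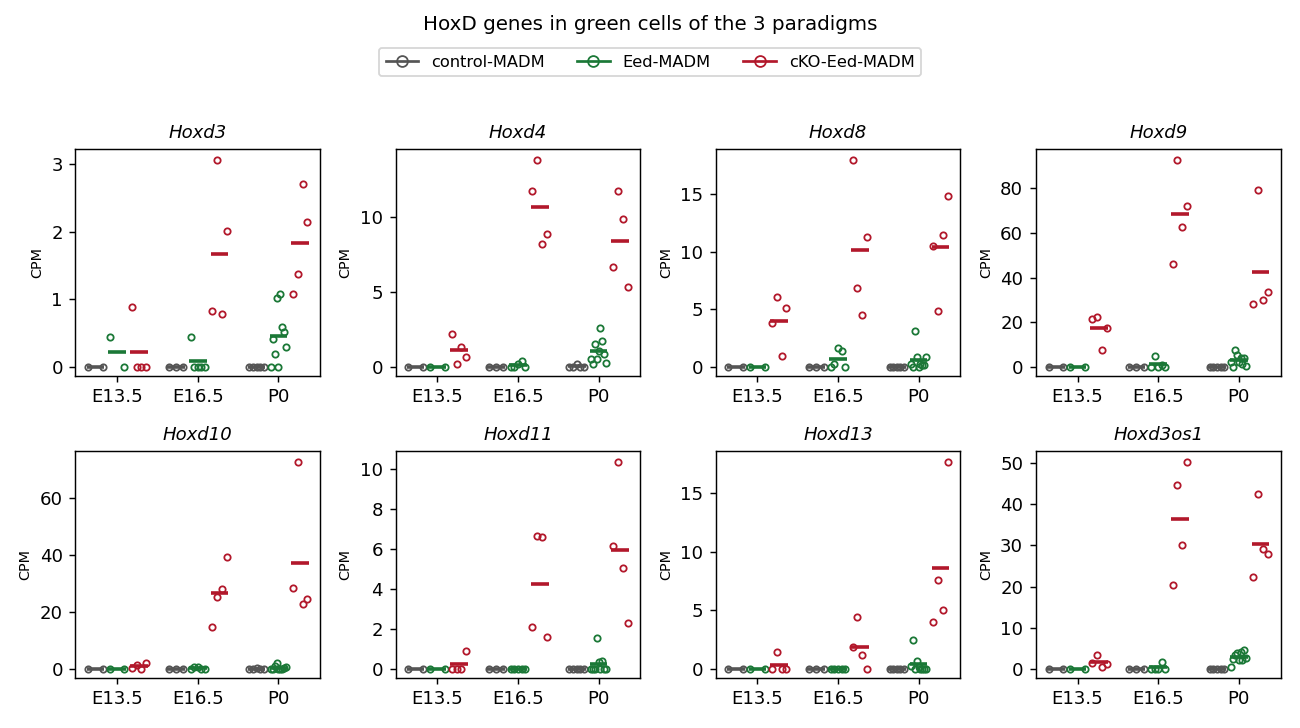
CPM of 7 HoxD members and of the antisense RNA Hoxd3os1 in green cells, with 1 panel per gene, ages along the horizontal axis, points for libraries coloured by paradigm and lines for group means. In cKO-Eed-MADM, Hoxd9 lies at 7.63 to 22.3 CPM in the E13.5 libraries, and Hoxd10 and Hoxd13 lie at 22.9 to 73.0 and 3.97 to 17.7 CPM in those of P0.

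By E16.5 most of the cluster was read out in cKO-Eed-MADM. Hoxd9 stood at 46.2, 92.9, 62.7 and 72.3 CPM in the 4 green libraries and at 0 reads in all 3 green control libraries. Hoxd10, which patterns the lumbar spinal cord and hindlimb, stood at 14.6, 25.3, 28.2 and 39.3 CPM, again against 0 reads. These were differences of at least 343-fold for Hoxd9 and at least 135-fold for Hoxd10, with log2 differences of 11.47 (SE 1.65, adjusted p = 0.000451) and 10.12 (SE 1.28, adjusted p = 6.37e-05). Hoxd4 stood at 11.7, 13.8, 8.18 and 8.86 CPM (log2 difference 8.78, SE 1.43, adjusted p = 0.000598). Hoxd8 stood at 18.0, 6.83, 4.48 and 11.3 CPM (8.71, SE 1.77, adjusted p = 0.00397). Neither had a read in a control library, and every cKO-Eed-MADM library lay above every control library for all 4 genes.

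The remaining members were lower at E16.5. Hoxd11, a gene of the forearm and sacral region, gave 10, 39, 34 and 8 reads, at least 21.3-fold above control-MADM. Hoxd13, the most posterior member and a gene of digits and the genital bud, gave 9, 26, 6 and 0 reads, so that 1 library overlapped the controls at 0. Hoxd3, which acts in the upper neck, gave 4, 18, 4 and 10 reads. Hoxd1, expressed in sensory ganglia, gave 13 reads in replicate 4 and none in the other 3. Hoxd12 gave none in these 4 libraries, which allows up to 0.145 CPM over them (3 reads). In all, 6 of 9 members did not overlap between the 2 groups, where 6.74% of all genes with a read had every cKO-Eed-MADM library above every control library.

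At this age 4 members passed the limit (Hoxd4, Hoxd8, Hoxd9 and Hoxd10) and 4 were called higher, where 6.16% of all genes were. Without the limit 5 of 8 members were called, Hoxd11 added (adjusted p = 0.00516), against 3.89% of all genes. Hoxd3 (adjusted p = 0.0795) and Hoxd13 (adjusted p = 0.0659) were not.

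At P0 the cluster was again read out from Hoxd3 to Hoxd13 in cKO-Eed-MADM. Hoxd9 stood at 28.2, 79.2, 29.9 and 33.6 CPM in the 4 green libraries, and Hoxd10 at 28.5, 73.0, 22.9 and 24.5 CPM. Each had 1 read in 1 of the 5 green control libraries, so that the ratio of summed reads was 1084 for Hoxd9 (95% interval 194 to 42874) and 930 for Hoxd10 (166 to 36808). Replicate 2, the highest in both genes, was the shallowest library of the age with 2784557 gene reads. The log2 differences were 9.52 (SE 0.97, adjusted p = 1.36e-07) for Hoxd9 and 9.32 (SE 1.06, adjusted p = 7.14e-07) for Hoxd10.

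Hoxd13 stood at 3.97, 7.61, 5.04 and 17.7 CPM in the P0 cKO-Eed-MADM libraries and at 0 reads in all 5 controls, at least 81.8-fold higher (log2 difference 8.47, SE 1.46, adjusted p = 0.000232). Hoxd8 stood at 10.5, 4.84, 11.4 and 14.8 CPM, at least 99.1-fold higher (8.75, SE 1.33, adjusted p = 5.73e-05). Hoxd4 stood at 6.68, 11.8, 9.90 and 5.36 CPM against 1 control read, a ratio of 227 (95% interval 40.1 to 9010; log2 difference 7.17, SE 0.92, adjusted p = 3.30e-06). Hoxd11 gave 34, 30, 26 and 13 reads and Hoxd3 gave 6, 4, 14 and 12, with none in any control, at least 56.9-fold and 17.5-fold higher. Hoxd1 gave 1 read and Hoxd12 none. The 2 groups did not overlap for 7 of the 9 members, where this held for 6.38% of all genes with a read, in the same direction.

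By the test 5 of 5 members that passed the limit were called higher at P0, where 14.2% of all genes were, and 7 of 8 without the limit, where 6.96% were. The members added without the limit were Hoxd3 (adjusted p = 0.00225) and Hoxd11 (adjusted p = 8.65e-05). When a cKO-Eed-MADM library was left out, fewer members passed the limit and all that did were called: 3 of 3 without replicate 1, 2 or 3, and 2 of 2 without replicate 4.

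Genes of other cell types moved in the same comparisons. Over all genes, 6.16% were called higher and 323 of 13359 lower at E16.5, and 14.2% and 1417 of 14161 at P0. At E16.5, 7 of 11 dorsal cortex markers were lower in green cKO-Eed-MADM cells, with summed levels of 2043 to 2637 CPM against 5275 to 5693 in control-MADM. At the same age 6 of 7 interneuron markers tested were higher (summed 283 to 532 against 14.1 to 35.3 CPM), as were 2 of 5 Cajal-Retzius markers, 2 of 6 microglia markers (17.5 to 65.2 against 5.93 to 6.87 CPM), 1 of 4 meningeal markers and 1 of 5 red blood cell markers. At P0, 8 of 11 dorsal cortex markers were lower (801 to 945 against 2472 to 3469 CPM) and 4 of 8 interneuron markers were lower (202 to 278 against 380 to 909 CPM). Higher at P0 were 6 of 7 microglia markers (176 to 400 against 7.25 to 54.0 CPM), 6 of 6 meningeal markers (122 to 286 against 8.41 to 17.9 CPM) and 4 of 5 Cajal-Retzius markers (247 to 680 against 85.5 to 121 CPM). The single endothelial marker tested was not called at either age. In cKO-Eed-MADM no dorsal cortex, interneuron, microglia, meningeal or Cajal-Retzius marker was at 0 at either age, while the endothelial markers Cdh5 and Tie1 were at 0 at E16.5. At E13.5 no marker of any list was called, where of 13448 genes only 4 were called higher and 1 lower. Summed dorsal cortex levels at that age were 4349 to 5735 CPM in cKO-Eed-MADM against 2896 to 4347 CPM in the 2 control libraries. Sums of the other lists overlapped between these groups. The part of these shifts in the HoxD values was not tested. In such sorted bulk samples, fewer cells that express a gene and less of its RNA per cell cannot be told apart.

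Sparse Eed-/- cells in Eed-MADM showed far lower HoxD levels than the cells of the tissue-wide mutant. At E13.5 the 2 green Eed-MADM libraries held 2 reads of Hoxd3 and of no other member. At E16.5 the summed HoxD level of the 5 green libraries was 2.30 ± 2.37 CPM (SD), from 0 to 5.99, against 124.6 ± 25.8 CPM in the 4 cKO-Eed-MADM libraries. Hoxd9 gave 0, 21, 0, 4 and 0 reads in the 5 libraries, Hoxd8 gave 0, 1, 10, 7 and 0, and Hoxd10 gave 0, 3, 4, 0 and 0. Replicate 5 held no HoxD read at all, and different libraries led for different genes.

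By P0 HoxD reads were present in 9 of 9 green Eed-MADM libraries, with 9 to 72 reads each and a summed level of 6.31 ± 4.05 CPM (SD, range 2.67 to 13.4). The 5 green control libraries held 0 to 2 reads. Hoxd9 ranged from 0 to 7.49 CPM with a median of 2.28 over the 9 libraries, and 8 of 9 lay above every control library. Its ratio of summed reads to control-MADM was 91.1 (95% interval 16.1 to 3624), and the log2 difference was 5.70 (SE 0.99, adjusted p = 0.00256). Hoxd4 ranged from 0.204 to 2.60 CPM with a median of 0.869, above every control in 9 of 9 libraries, with a ratio of 30.2 (5.15 to 1216) and a log2 difference of 4.17 (SE 0.90, adjusted p = 0.0162). Hoxd4 was the 1 member of 9 whose Eed-MADM and control-MADM libraries did not overlap, where 0.451% of all genes with a read lay higher in every Eed-MADM library.

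Other members were patchy in the P0 Eed-MADM libraries. Hoxd3 had reads in 7 of 9 libraries and 21 in all, at least 4.36-fold above control-MADM. Hoxd8 had reads in 7 of 9 and 28 in all, of which 16 were in replicate 3 (log2 difference 4.74, SE 1.39, adjusted p = 0.0883). Hoxd10 had 23 reads in 4 libraries (adjusted p = 0.192), Hoxd13 had 18 in 4 libraries (adjusted p = 0.183), with 12 of them in replicate 2, and Hoxd11 had 13 in 3 libraries. Hoxd1 had 2 reads and Hoxd12 none.

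Thus 2 of 5 members that passed the limit were called higher in Eed-MADM at P0, Hoxd4 and Hoxd9, where 1.52% of all genes were. Without the limit it was 2 of 8, against 0.606% of all genes. With the replicate number as a block Hoxd9 alone was called (adjusted p = 0.0211, Hoxd4 0.108), and with edgeR's newer form of the quasi-likelihood fit neither was (Hoxd9 0.0501, Hoxd4 0.0737). DESeq2 called 3 of the 5 members. At E16.5, 0 of 4 members were called, where 0.24% of all genes were, although 3 had an unadjusted p under 0.05, and DESeq2 called 0. Without the limit 1 of 8 was called, Hoxd9 (adjusted p = 0.00108), against 0.792% of all genes. No marker of the cell type lists was called higher between these groups at P0, and 1 of 8 interneuron markers was lower. Of all 14161 genes tested, 33 were called lower there. Both mutant paradigms are compared with the same control libraries.

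In the direct comparison of Eed-/- cells the HoxD members were higher after tissue-wide than after sparse loss. At E16.5 the ratio of mean CPM in cKO-Eed-MADM to Eed-MADM was 97.1 for Hoxd10, 58.9 for Hoxd9 and 15.4 for Hoxd8, and the ratio of summed reads was 90.7 for Hoxd4 (95% interval 30.6 to 443). At P0 the ratios of mean CPM were 77.6 for Hoxd10, 23.6 for Hoxd11, 21.7 for Hoxd13, 16.54 for Hoxd8, 14.2 for Hoxd9, 8.14 for Hoxd4 and 4.01 for Hoxd3. At P0 the ratios were larger for the 5′ members Hoxd10, Hoxd11 and Hoxd13 than for Hoxd9, Hoxd4 and Hoxd3. This was seen after the values were known, was not tested and was not so at E16.5, where the ratio of Hoxd4 lay above that of Hoxd9. Every cKO-Eed-MADM library lay above every Eed-MADM library for 6 of 9 members at E16.5, where 3.13% of all genes with a read did so, and for 7 of 9 at P0, where 3.06% did.

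In this comparison 4 of 4 members were called higher in cKO-Eed-MADM at E16.5, where 4.45% of all genes were, and 6 of 8 without the limit, where 3.17% were. The log2 differences ran from 3.89 (SE 0.95, adjusted p = 0.0171) for Hoxd8 to 6.52 (SE 0.74, adjusted p = 2.10e-05) for Hoxd10. At P0 5 of 5 members were called, where 11.2% of all genes were, and 6 of 8 without the limit, where 5.7% were. These differences ran from 3.00 (SE 0.55, adjusted p = 0.000353) for Hoxd4 to 6.18 (SE 0.65, adjusted p = 3.43e-07) for Hoxd10. Leaving out 1 cKO-Eed-MADM library at P0 again left 3 or 2 members past the limit, all called. Cell type markers moved here as well, where 345 of 13359 genes were called lower at E16.5 and 1169 of 14161 at P0. At E16.5, 7 of 11 dorsal cortex markers were lower (2043 to 2637 against 4162 to 5785 CPM), and 6 of 7 interneuron markers (283 to 532 against 19.4 to 65.9 CPM), 2 of 5 Cajal-Retzius markers, 1 of 4 meningeal markers and 1 of 5 red blood cell markers were higher. At P0, 8 of 11 dorsal cortex markers were lower (801 to 945 against 2327 to 3160 CPM), with 4 of 8 interneuron markers lower and 1 higher. Higher were 6 of 6 meningeal (122 to 286 against 7.82 to 33.0 CPM), 4 of 7 microglia (176 to 400 against 1.27 to 163 CPM) and 4 of 5 Cajal-Retzius markers, the remaining 1 of which was lower. Their part in the HoxD values was not tested. Eed itself did not pass the threshold between these groups at E16.5 (log2 difference 0.11, adjusted p = 0.893) or at P0 (-0.39, adjusted p = 0.237).

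The colours tell Eed genotypes apart within Eed-MADM but not within cKO-Eed-MADM. At P0 the 2 red (Eed+/+) and 2 yellow (Eed+/-) Eed-MADM libraries held 0 HoxD reads, as did the red library of E16.5. The 5 libraries together held 27022332 gene reads. Against red cells, green Eed-/- cells of Eed-MADM differed in Hoxd9 by 6.93 on the log2 scale (SE 2.31, unadjusted p = 0.00638 from edgeR, adjusted p = 1.00) and in Hoxd4 by 5.41 (SE 1.57, adjusted p = 0.629). Of 4 members 0 were called, where 0.0917% of all genes were called higher, 2 had an unadjusted p under 0.05, and DESeq2 called 0. Against yellow cells it was again 0 of 4 (Hoxd4 adjusted p = 0.168, Hoxd9 0.253), where 0.127% of all genes were called higher, with 2 at an unadjusted p under 0.05 and 0 by DESeq2. The smaller group held 2 libraries in each comparison, and why the differences did not pass the threshold was not tested. HoxD reads were present in 9 of 9 green libraries and 0 of 4 red and yellow ones.

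At E13.5 a yellow (Eed+/-) Eed-MADM library, replicate 2, held 12 Hoxd9 reads (2.43 CPM), while replicate 1 and both green libraries held none. A red (Eed+/+) library, replicate 1, held 4 Hoxd3 reads. The log2 difference of green minus yellow was -5.56 (SE 1.94, adjusted p = 0.321), with 0 of 1 member called higher and 0% of all genes. That member had an unadjusted p under 0.05, and DESeq2 did not call it.

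In cKO-Eed-MADM, where every colour is Eed-/-, all 3 colours showed HoxD reads. At E13.5 the summed level was 24.0 ± 9.66 CPM in 4 green libraries, 24.6 ± 3.79 in 2 yellow and 19.3 ± 6.09 in 2 red ones (mean ± SD). Hoxd9 led in each, with 23.9 and 19.0 CPM in the yellow and 7.91 and 11.8 CPM in the red libraries. At E16.5 the 2 red libraries reached 117.8 ± 46.6 CPM, beside 124.6 ± 25.8 in green. At P0 the yellow library stood at 117.5 CPM, beside 115.2 ± 49.1 in green cells. Between green and red cKO-Eed-MADM cells, 0 of 1 member was called higher at E13.5 (0.0523% of all genes), 0 of 4 at E16.5 (0.0828%) and 0 of 4 at P0 (2.42%), with none at an unadjusted p under 0.05 and none by DESeq2. The log2 differences at E16.5 lay between 0.01 (SE 0.78) for Hoxd9 and 0.26 (SE 1.05) for Hoxd8, so that differences of a few-fold in either direction cannot be told from 0.

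Red cells, with the opposite origin of chromosome 7, showed the same contrast with control-MADM in other libraries. The labels do not say whether the red libraries came from the same pools as the green ones. They may therefore not be an independent repeat. At E16.5 Hoxd9 stood at 54.2 and 82.8 CPM in red cKO-Eed-MADM cells and Hoxd10 at 12.5 and 40.6 CPM, and both red control libraries held no HoxD read. Here 4 of 4 members past the limit were called higher, with log2 differences from 8.40 (Hoxd8, SE 2.17, adjusted p = 0.033) to 11.41 (Hoxd9, SE 2.03, adjusted p = 0.00469), where 3.02% of all genes were. These members too had passed the limit through cKO-Eed-MADM, and without it the same 4 were called, of 8 tested (1.8% of all genes). Leaving out control-MADM red replicate 1 left 1 call and leaving out replicate 2 left 2, the remaining control library being assumed to vary like the other groups.

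At P0 the 2 libraries labelled cKO-Eed-MADM red differed from each other. Replicate 2 held 206 reads of Hoxd9 (42.0 CPM), 136 of Hoxd10, 59 of Hoxd8, 53 of Hoxd4, 44 of Hoxd11 and 36 of Hoxd13. The library labelled replicate 1, in which Eed stood at the control level, held 195 reads of Hoxd10 (43.9 CPM), 101 of Hoxd11 (22.8 CPM) and 21 of Hoxd4, but none of Hoxd9, Hoxd8, Hoxd13 or Hoxd3. Against red control cells 3 of 4 members past the limit were called higher (Hoxd4, Hoxd9 and Hoxd10), where 2% of all genes were. Without the limit 4 of 8 were called, Hoxd11 added (0.456% of all genes). This count and the log2 differences that follow include the library labelled replicate 1. No fit without the limit left that library out. The log2 differences were 8.30 (SE 1.75, adjusted p = 0.00812) for Hoxd4, 9.74 (SE 2.50, adjusted p = 0.0234) for Hoxd9 and 10.49 (SE 2.20, adjusted p = 0.00779) for Hoxd10. Without the library labelled replicate 1 all 4 were called, without replicate 2 only 1 was, and without either control library 0 were. In the comparison of green with red cells at P0, leaving out red replicate 2 gave 2 calls in place of 0, and leaving out the library labelled replicate 1 gave 0.

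Across ages the summed HoxD level in green cKO-Eed-MADM cells was 24.0 CPM on average at E13.5, 5.18 times as high at E16.5 and 0.924 times the E16.5 level at P0, and the sum was not tested. Hoxd10 rose most in these cells, from 0.443, 1.25, 0 and 2.08 CPM to 14.6, 25.3, 28.2 and 39.3 CPM. Its ratio of means was 28.5, with 17 reads in all at E13.5. Its log2 difference was 4.81 (SE 1.11, adjusted p = 0.0034 in one edgeR fit over all green libraries of the 3 later ages). Hoxd9 had a ratio of 3.98, with a log2 difference of 1.99 (SE 0.84, adjusted p = 0.132). In red cKO-Eed-MADM cells the mean of Hoxd10 was 3.35 CPM at E13.5 and 26.5 CPM at E16.5. That of Hoxd9 was 9.87 and 68.5 CPM, and ages were not tested in red cells. The green E16.5 libraries all lay above those of E13.5 for Hoxd4, Hoxd9, Hoxd10 and Hoxd11, as they did for 5.28% of all genes with a read. By the test 1 of 2 members past the limit was called higher, where 5.3% of all genes were. DESeq2 called neither (Hoxd10 adjusted p = 0.0835), and the fit without the limit called both Hoxd9 and Hoxd10.

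From E16.5 to P0 the log2 differences in cKO-Eed-MADM were -0.65 for Hoxd9 (SE 0.81, adjusted p = 0.696) and 0.50 for Hoxd10 (SE 0.92, adjusted p = 0.805). Hoxd13, which did not pass the limit, had mean levels of 1.87 CPM at E16.5 and 8.58 CPM at P0, a ratio of 4.58, with overlapping libraries. Of 2 members 0 were called higher between these ages, where 6.01% of all genes were, with 0 at an unadjusted p under 0.05 and 0 by DESeq2. Without P0 replicate 2, the Hoxd10 difference was -0.07.

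In green Eed-MADM cells the mean summed level at P0 was 2.74 times that at E16.5. Hoxd9 had a ratio of means of 2.59 and a log2 difference of 1.43 (SE 0.77, adjusted p = 0.224). Of 2 members 0 were called higher from E13.5 to E16.5, where 5.12% of all genes were, with 1 at an unadjusted p under 0.05. From E16.5 to P0 it was again 0 of 2, where 8.38% of all genes were called higher, with 0 at an unadjusted p under 0.05. DESeq2 called 0 in both steps. Leaving out E16.5 Eed-MADM replicate 2, which held 21 of the 25 Hoxd9 reads of its group, gave 1 call in the later step. The change over time did not pass the threshold between the paradigms: 0 of 2 members were called from E13.5 to E16.5 (0.555% of all genes) and 0 of 2 from E16.5 to P0 (0.0962%). For Hoxd9 these differences of differences were -3.19 (SE 2.27, adjusted p = 0.774) and -2.08 (SE 1.12, adjusted p = 0.689). None of the 4 values had an unadjusted p under 0.05 or was called by DESeq2. Green Eed-MADM libraries of E13.5 held 0 Hoxd9 reads, so the size of the first Hoxd9 value (-3.19) is not determined.

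**Figure D3:**
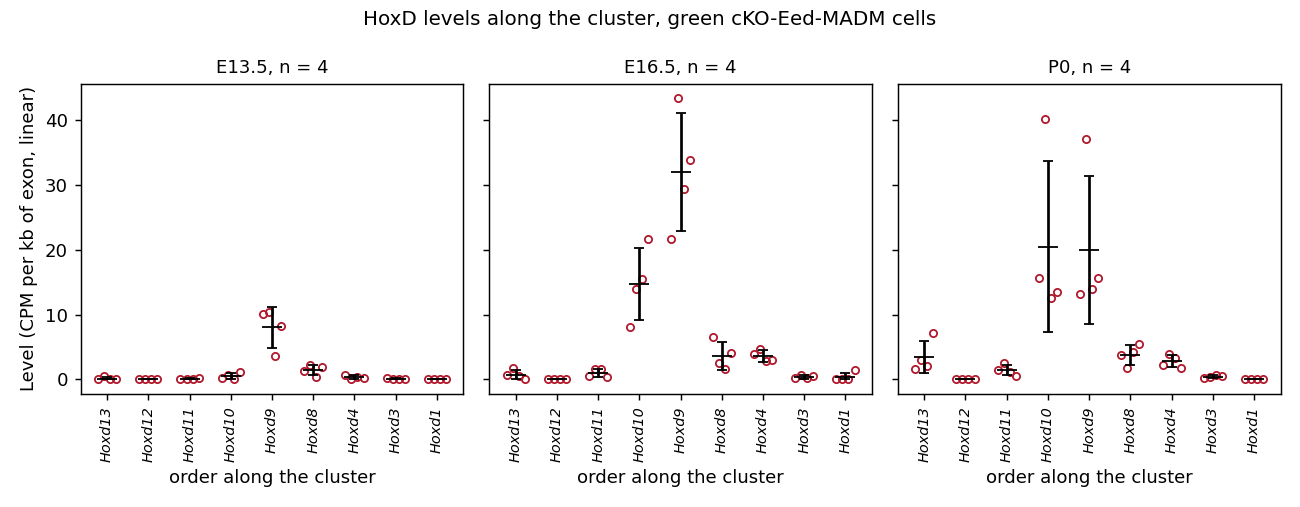
CPM per kilobase of exon (linear axis) of each HoxD member in green cKO-Eed-MADM cells, with members in their order along the cluster and 1 panel each for E13.5, E16.5 and P0. Points are the 4 libraries of each age and bars are mean ± SD, with the lower bar stopped at 0. Hoxd9 is the peak in the first and second panels (8.06 and 32.1), and in the P0 panel Hoxd10 (20.5) stands beside Hoxd9 (20.0).

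Levels between members were compared per kilobase of merged exon, and they peaked in the middle of the cluster. At E13.5 the order in green cKO-Eed-MADM cells was Hoxd9 (8.06 ± 3.15 CPM per kilobase, SD, n = 4), Hoxd8 (1.44 ± 0.808), Hoxd10 (0.518 ± 0.504) and Hoxd4 (0.375 ± 0.294), with the other 5 members under 0.15. Hoxd9 lay above Hoxd8 in every pair of libraries, while Hoxd8 and Hoxd10, and each later pair of neighbours in the order, overlapped.

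At E16.5 the order per kilobase was Hoxd9 (32.1 ± 9.13), Hoxd10 (14.8 ± 5.58), Hoxd8 (3.70 ± 2.16), Hoxd4 (3.61 ± 0.888), Hoxd11 (1.01 ± 0.658), Hoxd13 (0.754 ± 0.757), Hoxd3 (0.400 ± 0.261), Hoxd1 (0.352 ± 0.703) and Hoxd12 (0). Hoxd9 lay above Hoxd10 in each of the 4 libraries, although their ranges met. Hoxd10 lay above Hoxd8, and Hoxd4 above Hoxd11, in every pair of libraries. Hoxd8 and Hoxd4 did not differ beyond their spread, nor did Hoxd11, Hoxd13, Hoxd3 and Hoxd1 from one to the next.

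At P0 Hoxd10 (20.5 ± 13.2 CPM per kilobase) and Hoxd9 (20.0 ± 11.4) did not differ beyond their spread, and both lay above Hoxd8 (3.79 ± 1.51) in every pair of libraries. They were followed by Hoxd13 (3.45 ± 2.52), Hoxd4 (2.86 ± 0.993), Hoxd11 (1.42 ± 0.794), Hoxd3 (0.437 ± 0.177), Hoxd1 (0.024) and Hoxd12 (0). When only exon parts in no other gene gave the length, Hoxd4 took the third place at all 3 ages (0.786, 7.57 and 5.99 CPM per kilobase). Since reads in several genes were not counted, values per whole exon length understate Hoxd4 and Hoxd3. The order did not follow position step by step: Hoxd12 was silent between Hoxd13 and Hoxd11, and Hoxd1 and Hoxd3 at the 3′ end were low.

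**Figure D4:**
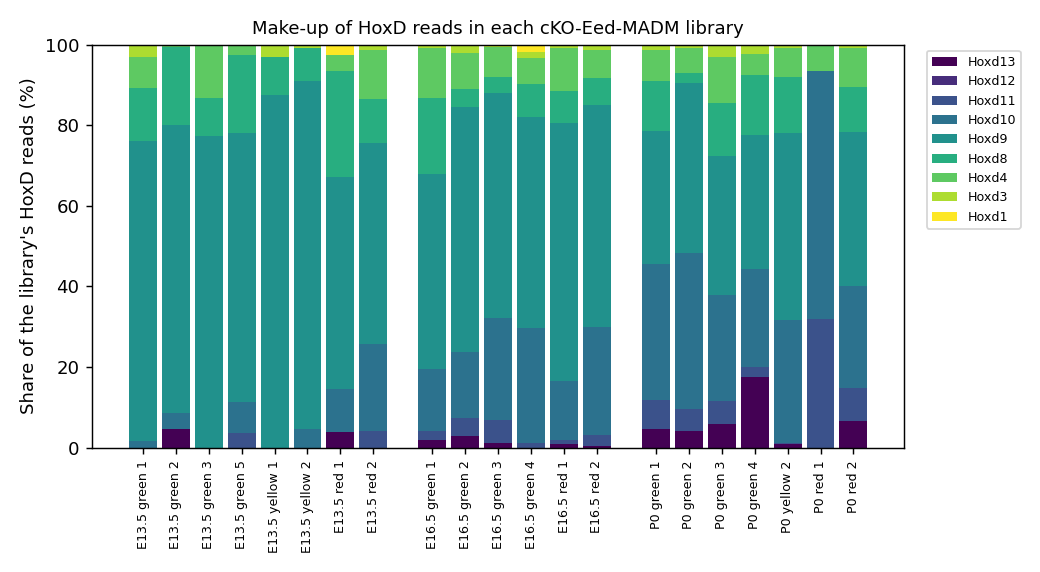
Share of HoxD reads held by each member in every cKO-Eed-MADM library from E13.5 to P0, as stacked bars that add up to 100%. Hoxd9 holds 66.7% to 77.4% in green cells at E13.5 and 33.1% to 42.1% at P0, while Hoxd10 holds 0% to 7.89% and 24.3% to 38.8%. The P0 bar of the library labelled red replicate 1 lacks Hoxd9 altogether.

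The make-up of the HoxD reads changed with age. In green cKO-Eed-MADM cells Hoxd9 made up 72.5% of HoxD reads on average at E13.5 (66.7% to 77.4% over 4 libraries), 54.4% at E16.5 (48.5% to 60.7%) and 35.7% at P0 (33.1% to 42.1%). Hoxd10 made up 3.36%, 21.4% and 30.8%. Hoxd13 made up 1.17%, 1.48% and 8.03%, and Hoxd11 made up 0.877%, 3.40% and 5.21%. The number of Hoxd10 reads per Hoxd9 read was 0.0206, 0.0561, 0 and 0.118 in the 4 libraries of E13.5. By E16.5 it was 0.317, 0.272, 0.450 and 0.543. The P0 libraries gave 1.01, 0.921, 0.766 and 0.729. In these green libraries the 3 ages did not overlap in this ratio, which does not depend on library depth or scaling. Red cKO-Eed-MADM libraries did overlap in the share of Hoxd10, with 10.5% and 21.6% at E13.5 and 14.7% and 26.9% at E16.5. It was 25.3% and 61.5% in those of P0. Yellow libraries gave 0% and 4.50% at E13.5 and 30.5% at P0. The pair of Hoxd10 and Hoxd9 was chosen after its values were seen, and no test was made.

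The number of members seen per library followed the same groups. In green cKO-Eed-MADM cells 3 to 5 members had a read at E13.5, 7 at E16.5 and 7 to 8 at P0. In green Eed-MADM cells the number was 0 to 3 at E16.5 and 3 to 7 at P0, and in green control cells it was 0 at E13.5 and E16.5 and 0 to 2 at P0. Thinning all libraries of an age to the depth of the smallest moved the lowest values by less than 1 member (to 2.97, 6.98 and 6.99 for the 3 cKO-Eed-MADM groups and to 2.40 for Eed-MADM at P0).

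The antisense RNA Hoxd3os1 moved with the members in green cells, and the genes beside the cluster did not pass the test there. Hoxd3os1, transcribed against Hoxd3 and Hoxd4 from chr2:74703248-74716130 on the minus strand, stood at 20.3, 44.7, 30.2 and 50.3 CPM in green cKO-Eed-MADM cells at E16.5 and at 22.2, 42.5, 29.1 and 27.9 CPM at P0. Green control libraries held no read of it at either age, so that it was at least 182-fold and 290-fold higher (log2 differences 10.56, SE 1.45, adjusted p = 0.000133, and 10.31, SE 0.77, adjusted p = 7.82e-09). In P0 Eed-MADM it was present in 9 of 9 green libraries at 0.506 to 4.52 CPM, at least 27.2-fold above control-MADM (6.89, SE 0.80, adjusted p = 3.17e-05). It rose in cKO-Eed-MADM from E13.5 to E16.5 by 4.44 on the log2 scale (SE 1.11, adjusted p = 0.00679) and in Eed-MADM from E16.5 to P0 by 2.88 (SE 0.97, adjusted p = 0.0381).

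Haglr, which starts 84 bases from the Hoxd1 start and runs the opposite way, gave 2.51 to 3.07 CPM in green cKO-Eed-MADM cells at E16.5 and 2.33 to 6.07 CPM at P0. It did not pass the limit, and without it the adjusted p was 0.0237 and 0.000485. Both red cKO-Eed-MADM libraries of P0 held no Haglr read. Although Haglr shares a start region with Hoxd1, Hoxd1 had reads in 1 of these 4 libraries at each age. Evx2, the homeobox gene beside Hoxd13, had at most 4 reads in any library used. Mtx2, a mitochondrial outer membrane gene, and Lnpk, a gene of the endoplasmic reticulum, lie on either side of the cluster, were read in every library and were called in none of the green comparisons of paradigms. In red cells of P0, Mtx2 was called higher in cKO-Eed-MADM than in control-MADM (log2 difference 1.34, SE 0.31, adjusted p = 0.0106). It stood at 235.9 CPM in the library labelled red replicate 1 and at 108.5 CPM in replicate 2, against 70.3 and 65.7 CPM in the controls, and no fit was made for it without the former library.

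The other 3 Hox clusters moved in the same direction. They too were near 0 in control cells, so their counts are given from the fit without the limit. In green cKO-Eed-MADM cells against control-MADM at E16.5, 9 of 10 HoxA genes, 8 of 10 HoxB genes and 9 of 9 HoxC genes were called higher, where 3.89% of all genes were. At P0 it was 11 of 11, 9 of 10 and 9 of 9, where 6.96% of all genes were. At E13.5 it was 2 of 6, 2 of 9 and 1 of 7, beside 1 of 7 HoxD members and 0.484% of all genes. With the limit the gene of lowest adjusted p in the HoxC list was Hoxc9 at each of these ages (adjusted p = 0.0377, 1.52e-07 and 4.35e-13 from E13.5 to P0). In Eed-MADM at P0 the counts were 5 of 11 HoxA, 5 of 10 HoxB and 6 of 9 HoxC genes, beside 2 of 8 HoxD members and 0.606% of all genes. The clusters were not compared by a test.

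Of 9 genes for HOX cofactors, which help HOX proteins bind DNA, 3 were higher and 1 lower in green cKO-Eed-MADM cells at E16.5 (lowest adjusted p = 0.00388, for Meis1), and 1 was higher and 2 lower at P0 (lowest 5.43e-09, for Meis2). In Eed-MADM 0 of 9 were called at either age, with the lowest adjusted p at 0.465 and 0.0916, both for Pbx3. Of 11 genes for PRC2 subunits, 1 was lower in cKO-Eed-MADM at E16.5, Eed itself, and 4 were lower at P0, led by Ezh2 (adjusted p = 0.000139). Over all genes, cKO-Eed-MADM against control-MADM gave 6.16% called higher and 323 of 13359 called lower at E16.5. At P0 it gave 14.2% called higher and 1417 of 14161 called lower. For Eed-MADM, 0.24% and 1.52% of all genes were called higher at these ages. The counts of these short lists were not tested against those shares.

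The genes outside the 4 Hox clusters whose levels were most like those of the members were named by their correlation with the mean log2(CPM + 1) of the 9 members over 55 green libraries. These were Gata4 (Pearson r = 0.948), Cdkn2b (0.911), Cdkn2a (0.907), Pax2 (0.873) and Vax2 (0.871), among 13519 genes. Gata4, Pax2 and Vax2 encode transcription factors of the heart, kidney and eye, and Cdkn2a and Cdkn2b encode inhibitors of the cell cycle. Of the 50 genes with the highest correlation 20 were Hox genes, of which 2, Hoxd10 and Hoxd9, were members and so entered the mean themselves. Libraries of one paradigm and age are not independent points here, so these values describe likeness only and were not tested.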

How the data were processed

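RNA of sorted cells was sequenced by Smart-seq2. Per the labels and the study's methods, the authors aligned reads with STAR to GRCm38 (mm10), kept uniquely mapped reads and deposited whole-number read counts per gene from STAR's gene counting, with no normalization. The sources used here name no annotation release. Identifiers were matched to GENCODE (53274 of 53379 without version), and the unstranded column was used, since both strand columns held like shares of reads. Reads in no gene or several genes (13.4% to 40.4% of uniquely aligned reads per library) stayed out of library sizes. No table held columns of other samples (0). CPM values use TMM sizes over the 92 libraries.

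Counts were tested with edgeR 4.0.16 in R 4.3.3 (robust quasi-likelihood test, legacy form, TMM), with 1 mean per paradigm and age. The green libraries of an age gave 12 comparisons, all colours of an age 13, and green libraries of E13.5 to P0 gave 6 over age. P-values were adjusted by Benjamini-Hochberg over all genes tested. DESeq2, the tool of the study, was run here in version 1.42.0 as an alternative. The test was checked on simulated counts. A fold against a group at 0 reads was computed against 3 reads over that group, and ratios with 1 to 3 reads carry exact 95% intervals. All 9 members and the 5 genes beside or within the cluster were named, with the leading gene of other lists. Of the 28 colour comparisons planned, 15 had a group of fewer than 2 libraries and were not run. Members and lists were chosen with earlier results of these data known.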

Additional observations from a re-analysis of the deposited data

Results flagged for a closer look

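Over the green groups of 4 to 10 libraries, there were 26 sets of values of 1 member in 1 group with at least 2 libraries over 3 reads. The highest and lowest value of each set were compared with the rest by Dixon's criterion, and 5 values passed. For normally distributed values, chance passes it in about 1 of 20 independent sets. Some sets here hold values at 0 beside a few reads, so that rate need not hold for them. Sets of one group share their libraries and are not independent. In P0 cKO-Eed-MADM green replicate 2, Hoxd9 stood at 79.2 CPM and Hoxd10 at 73.0 CPM, against 28.2 to 33.6 and 22.9 to 28.5 CPM in the other 3 libraries. That library had the fewest gene reads of its age. In E16.5 Eed-MADM green replicate 2, Hoxd9 stood at 5.03 CPM, against 0 to 0.792 CPM in the other 4. In P0 Eed-MADM green replicate 3, Hoxd8 stood at 3.07 CPM, against 0 to 0.890 in the other 8, and in replicate 2 Hoxd13 stood at 2.45 CPM, against 0 to 0.683.

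Of the libraries left out for depth or alignment, 7 held more HoxD reads per gene read than any control library of their age and colour. The library labelled P0 cKO-Eed-MADM yellow replicate 1 (55.9% of reads aligned uniquely, 9466 genes detected) held 656 HoxD reads. The library labelled E12.5 Eed-MADM yellow replicate 3 held 6 HoxD reads among 15225 gene reads. The other 5 held 1 to 3 HoxD reads each. These were E12.5 cKO-Eed-MADM green replicate 1 with 3, E13.5 Eed-MADM green replicate 7 with 2, replicates 3 and 8 of that group with 1 each, and E16.5 Eed-MADM yellow replicate 1 with 1.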

How the results depend on the processing

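Members called are given first as reported. With counts of one strand only, which left fewer members past the limit, the number for cKO-Eed-MADM against control-MADM went from 1 to 0 at E13.5, from 4 to 2 at E16.5 and from 5 to 2 at P0. Against Eed-MADM it went from 4 to 2 at E16.5 and from 5 to 2 at P0, and for Eed-MADM against control-MADM at P0 from 2 to 1. Without depth limits on libraries the P0 numbers were 3, 3 and 1 in the same order, with fewer members past the limit. For Eed-MADM against control-MADM at P0 the newer quasi-likelihood fit gave 0, the 2 groups alone gave 1 of 1 tested, the replicate block gave 1 and DESeq2 gave 3. At E13.5 against Eed-MADM, DESeq2, no limit on low counts and the 2 groups alone each gave 1 in place of 0. No limit gave 1 in place of 0 for Eed-MADM at E16.5 and for its step from E13.5 to E16.5, and 2 in place of 1 for that step in cKO-Eed-MADM, where the newer fit gave 2 and DESeq2 0.

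Leaving out 1 library at a time gave 0 to 1 at E13.5 and 2 to 5 at P0 against control-MADM, and 2 to 3 at P0 against Eed-MADM. In red cells against red control cells it gave 1 to 4 at E16.5 and 0 to 4 at P0, where the replicate block gave 1. For green against red cKO-Eed-MADM cells at P0 it gave 0 to 2, and for Eed-MADM from E16.5 to P0 it gave 0 to 1.

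Differences near 0 changed sign. For green against red cKO-Eed-MADM cells at E16.5 the block gave -0.074 for Hoxd8 and -0.13 for Hoxd10, and leaving out 1 library gave -0.16 to 0.58 for Hoxd8, -0.014 to 0.26 for Hoxd4, -0.24 to 0.35 for Hoxd9 and -0.57 to 1.12 for Hoxd10. At P0 the block gave -0.082 for Hoxd4 and -0.28 for Hoxd10, and leaving out 1 library gave -0.50 to 0.44 for Hoxd10, -0.36 for Hoxd4 and -0.21 to 8.72 for Hoxd8, the highest without red replicate 2. Hoxd10 from E16.5 to P0 in cKO-Eed-MADM ranged from -0.072 to 0.75, and its change between paradigms from -0.92 to 0.045. Without depth limits Hoxd9 was 2.31 for green minus yellow Eed-MADM at E13.5, -0.63 for Eed-MADM from E13.5 to E16.5 and 2.75 for that change between paradigms. The causes were not tested.

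Over all genes, the edgeR counts given here are of genes called higher, whereas the DESeq2 counts take in both directions. The tools can therefore not be compared directly by these counts. For cKO-Eed-MADM against control-MADM, edgeR with the limit also called 1, 323 and 1417 genes lower, from E13.5 to P0. In that comparison the E13.5 counts were 4 by edgeR, 140 by edgeR without the limit and 289 by DESeq2. At E16.5 it was 823, 1139 and 1543, at P0 2010, 2295 and 3665, and at E12.5 0, 109 and 6. In the same order, Eed-MADM against control-MADM gave, from the youngest age to the oldest, 0, 2 and 0, then 0, 21 and 40, then 32, 232 and 231, then 215, 200 and 608. For cKO-Eed-MADM against Eed-MADM these were 0, 168 and 1, then 2, 26 and 56, then 595, 928 and 1293, then 1589, 1879 and 3028. Green libraries of different paradigms with one replicate number had median correlations of -0.02, -0.08, 0.02 and 0.05 from E12.5 to P0. These rest on 11, 3, 10 and 12 pairs, and the main fits did not pair libraries by number. Whether colours with one number within a paradigm came from the same pool was not checked. Where the control libraries held no read of a member, no upper bound on its fold can be given.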
